A study of Homo sapiens with 9 samples.

Results

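This section concerns the difference between the libraries labelled A20-RE, for A20 put back, and those labelled A20-KO, for A20 knockout, in cells of the HCT116 line, an established human colon carcinoma line. It was described over the protein-coding genes with a mean level of at least 1 FPKM across the 6 libraries of both groups. FPKM is the number of fragments on a gene, scaled for the length of the gene and for the depth of the library. Of 58735 genes in the table and 19951 protein-coding genes, 11004 met the rule, and these are called members below. The members nearest to the limit were CCNJL, at 1.00 FPKM, and BCLAF3, at 1.00 FPKM, and the nearest genes left out were SLC22A18AS, at 0.998 FPKM, and IL12A, at 0.998 FPKM. The 145 members at or above 1 FPKM in A20-RE only and the 119 in the libraries labelled A20-KO only were kept as members.

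The study sequenced polyadenylated RNA from HCT116 cells in 3 groups of 3 libraries each. WT is HCT116 labelled as wild type. A20-KO is HCT116 in which the A20 gene, TNFAIP3, was targeted by CRISPR with a guide RNA carried by a lentivirus. A20-RE, called A20-OE in the sample labels, is described as the knockout line with A20 put back. All 3 groups came from cultured cells with no further agent in the labels. The expression vector described for A20 carries a Flag-tagged copy under a CMV promoter. The sources used here do not say whether A20-KO was a single clone or a pool, whether WT and A20-KO carried an empty vector, or whether the 3 libraries of a group came from separate cultures, so the p-values measure the spread between these libraries, which may be technical. Replicates are written WT1 to WT3, KO1 to KO3 and RE1 to RE3. The comparison asks which transcripts differed when A20 was put back, at a TNFAIP3 transcript level far above that of WT, as given below.

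A20 is a ubiquitin-editing enzyme. It joins a deubiquitinase domain with zinc fingers that bind ubiquitin chains, and with adaptors such as TNIP1 and TAX1BP1 it removes or replaces ubiquitin on signalling proteins downstream of TNF and Toll-like receptors. It is known as an NF-kB-induced brake on NF-kB signalling and as a protector of epithelial cells from death.

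The libraries held 23406222 to 24963691 reads on genes, recovered from the deposited values, all of which came out as whole reads within a tolerance of 0.05. Reads from the mitochondrial genome made up 9.18%, 10.14% and 11.86% in KO1 to KO3 and 12.24%, 11.97% and 13.95% in RE1 to RE3, so this share was higher in every A20-RE library. Of 12 colon epithelial markers, 9 were members, with summed levels of 1830 to 2416 FPKM in the libraries labelled A20-KO and 1832 to 2409 FPKM in A20-RE. The other 3, VIL1, LGALS4 and CDH17, were under 1 FPKM in all 6 libraries. Of 24 markers of blood, vessel, stromal, neural and liver cells, 22 were under 1 FPKM in all 6 libraries and 4, CD3D, MS4A1, COL1A2 and HBB, were at 0. Their summed level was 14.2 to 17.9 FPKM in those labelled A20-KO and 13.2 to 14.8 FPKM in A20-RE, and most of it was COL1A1, which had 12.4, 12.6 and 14.9 FPKM in KO1 to KO3 and 12.2, 10.99 and 12.1 FPKM in RE1 to RE3.

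TNFAIP3 (ENSG00000118503, chromosome 6, 137867188 to 137883312, plus strand, GRCh38) was listed at 0.869, 0.800 and 0.736 FPKM in WT1 to WT3, 1.93, 2.16 and 1.04 FPKM in KO1 to KO3 and 58.7, 66.5 and 56.5 FPKM in RE1 to RE3. The A20-RE libraries stood far above both other groups, with no overlap. The rise was 5.13 ± 0.23 (SE) on the log2 scale, a 34.9-fold difference (adjusted p = 2.13e-05, limma), and it was the largest among the members. An exact two-sided permutation test of the 3 libraries against 3 gave p = 0.1, the smallest value that design allows. Against WT, the libraries labelled A20-KO did not have less of this transcript but more, by 0.95 on the log2 scale (adjusted p = 0.0182, limma). The transcript alone thus does not show the knockout, so the group is called the libraries labelled A20-KO. A20 protein is not measured by these libraries, and a transcript level does not tell whether it was lost. The study shows A20 expression of its knockout and rescue cells separately. Differences are on the scale of log2(FPKM + 0.1), which understates those of low genes. Reads of the vector copy and of the cell's own gene cannot be told apart in these values. Below, higher and lower mean higher and lower in A20-RE than in the libraries labelled A20-KO.

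Across the 11004 members, 648 were higher and 823 were lower at an adjusted p under 0.05 in limma, which is 5.89% and 7.48% of the members. Over all 21636 genes tested, the shares were 4.43% higher and 4.54% lower. Past a 2-fold difference, 110 members were higher and 70 were lower, which is 1.00% and 0.636% of the members. Over all genes tested the shares past 2-fold were larger, at 1.56% higher and 0.832% lower. In 2291 members (20.8%) every A20-RE library was above every library labelled A20-KO, and in 3002 (27.3%) every one was below. Over all genes tested these shares were 17.4% and 18.0%. All 1471 changed members were among these members, so groups that do not overlap add no support to a call. Most changes were small, with a median size of 0.65 on the log2 scale among the changed members. Only 13 changed members, 12 higher and 1 lower, passed 4-fold. The balance of directions depended on scaling. Of the changed members, 44.1% were higher with the deposited scaling and 31.4% with limma-voom on the recovered reads. The share was 54.6% when the deposited values were divided by each library's share of reads outside the mitochondrial genome. The recovered reads were 0.95 to 1.066 times the depth implied by the deposited values. That division is therefore not the same as leaving mitochondrial reads out of the library totals. Past 2-fold, 61.1% were higher with the deposited scaling and 48.6% with limma-voom. The counts also depended on single libraries. They were 246 higher and 202 lower without KO1, 412 and 465 without KO2, 346 and 358 without KO3, 174 and 170 without RE1, 206 and 185 without RE2, 295 and 399 without RE3, 1020 and 1564 without WT1, and 411 and 457 without WT2. WT libraries enter these counts only through the shared estimate of spread.

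**Figure D1:**
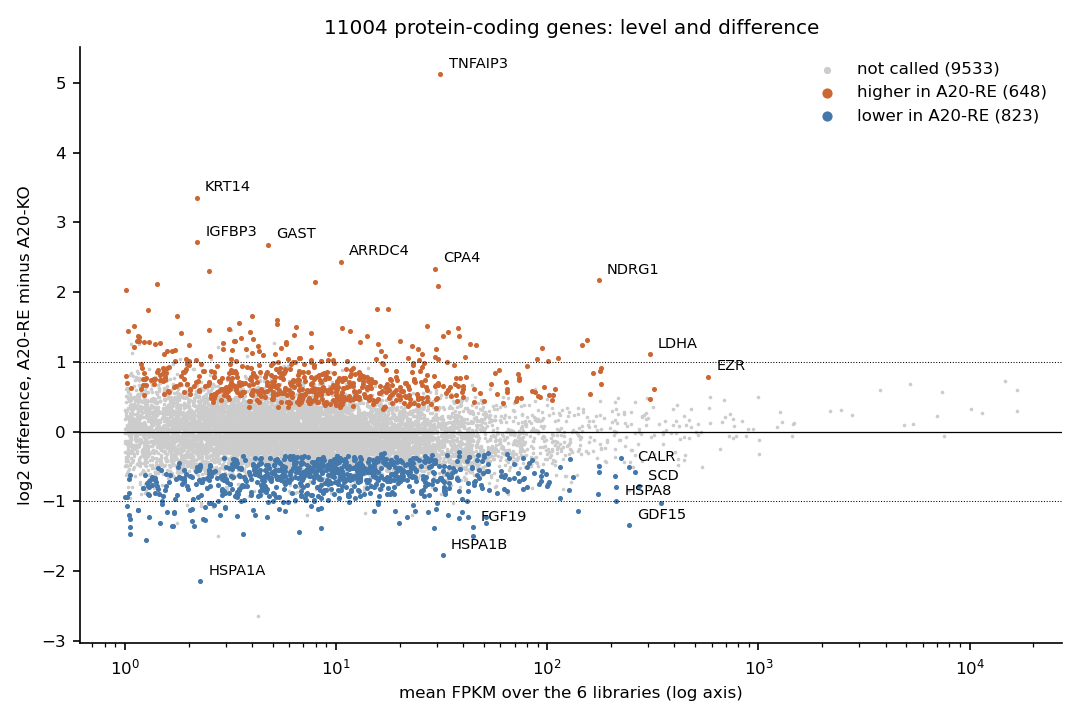
Each point is 1 of 11004 protein-coding genes, placed by its mean FPKM over the 6 libraries (log axis) and its log2 difference between A20-RE and the libraries labelled A20-KO. The 648 members called higher are orange, the 823 called lower are blue, dotted lines mark 2-fold, and TNFAIP3 stands alone at 5.13.

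The 12 changed members with the largest rises were TNFAIP3, 3 keratins and a mixed set of other genes, many of them secreted or regulatory. KRT14, a keratin of basal stratified epithelium, had 0.343, 0.250 and 0.320 FPKM in KO1 to KO3 and 4.05, 3.304 and 4.83 FPKM in RE1 to RE3, a rise of 3.35 ± 0.22 (SE, log2, adjusted p = 0.000257, limma). IGFBP3, a secreted protein that binds insulin-like growth factors, had 0.684, 0.454 and 0.413 FPKM and 3.88, 3.68 and 4.11 FPKM in the same libraries, a rise of 2.72 ± 0.20 (adjusted p = 0.000401, limma). These were low-abundance transcripts in both groups. GAST, which encodes the stomach hormone gastrin, rose from 1.401, 0.692 and 1.64 FPKM to 7.46, 6.69 and 10.6 FPKM, by 2.68 ± 0.38 (adjusted p = 0.00555, limma). ARRDC4, an arrestin-related protein whose gene responds to glucose, rose from 3.57, 3.23 and 2.84 FPKM to 18.3, 17.9 and 17.2 FPKM, by 2.44 ± 0.14 (adjusted p = 0.00012, limma). CPA4, a secreted metallocarboxypeptidase, was among the more abundant of the 12. It had 9.23, 9.33 and 10.3 FPKM in KO1 to KO3 and 48.9, 47.1 and 50.8 FPKM in RE1 to RE3, a 5.05-fold difference (2.34 ± 0.084, adjusted p = 8.5e-06, limma). The forkhead transcription factor gene FOXQ1 rose by 2.11 ± 0.36 from a mean below 1 FPKM, and its call was lost without KO1, RE1 or RE2. NDRG1, KRT16, KRT80 and LCN2 were also among the 12 and are described with their groups. The 12 were chosen among changed members whose groups did not overlap. KRT14, IGFBP3, FOXQ1, KRT16 and LCN2 had means below 1 FPKM in the libraries labelled A20-KO. They met the rule for members only through A20-RE, where they are high, so the rule favours their rises.

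Among the 12 largest falls of changed members, 2 were the stress-inducible HSP70 genes HSPA1A and HSPA1B, described below. The rule likewise favours the falls of members that met it only through the libraries labelled A20-KO, as HSPA1A did. DUSP6, the phosphatase that switches off ERK, had 63.3, 67.5 and 65.2 FPKM in KO1 to KO3 and 23.4, 21.1 and 25.2 FPKM in RE1 to RE3, a difference of -1.49 ± 0.088 (SE, log2, adjusted p = 0.00012, limma). In WT it had 41.4, 40.3 and 41.8 FPKM, between the other groups. FGF19, the intestinal hormone that restrains bile acid synthesis, had 64.4, 60.7 and 66.5 FPKM and 23.8, 22.8 and 27.8 FPKM (-1.37 ± 0.12, adjusted p = 0.000719, limma), and 24.7, 26.4 and 31.3 FPKM in WT, so the A20-RE libraries lay at the WT level. NRGN, which encodes the calmodulin-binding protein neurogranin, fell (-1.37 ± 0.20), as did SLC2A6, a sugar transporter of lysosomes (-1.38 ± 0.18). CENPM, a centromere protein, went from 8.56, 8.37 and 12.6 FPKM to 3.103, 3.22 and 4.33 FPKM (-1.43 ± 0.19, adjusted p = 0.00425, limma). KIAA1211L, CNPY4, FOXD4, CLEC18B and KISS1R, the kisspeptin receptor, were under 6 FPKM in every library labelled A20-KO or A20-RE and fell, with differences of -1.55 to -1.36. The call of CLEC18B was lost without KO1, KO3, RE1, RE2, RE3 or WT2, and that of KISS1R without KO1, KO2, KO3, RE1, RE2 or WT2. BOLA2B had the largest negative difference of any member but was not called (-2.65, adjusted p = 0.344, limma). It was singled out after its values were seen. It had 24.1, 0.387 and 0.534 FPKM in KO1 to KO3 and 0.157, 0.207 and 0.287 FPKM in RE1 to RE3, and BOLA2B has a near-identical copy, BOLA2, between which reads can be split in different ways.

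**Figure D2:**
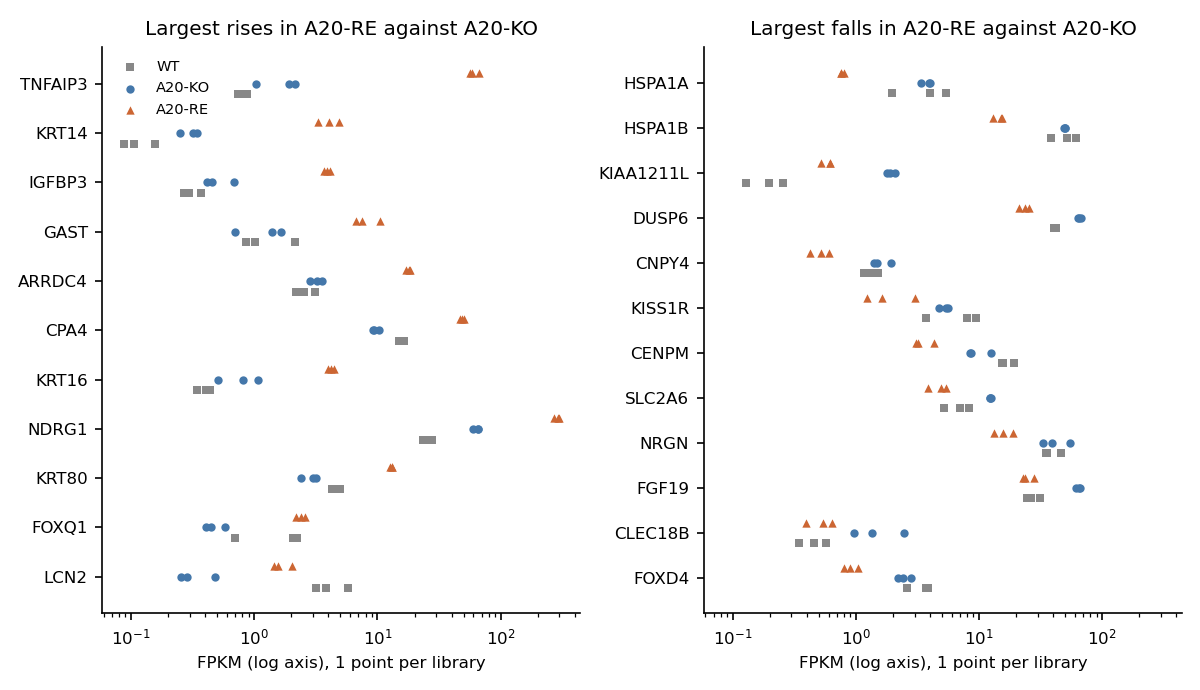
FPKM (log axis) of members among the 12 largest rises and the 12 largest falls of changed members, 1 point per library, with WT as grey squares, the libraries labelled A20-KO as blue circles and A20-RE as orange triangles. The genes were chosen for groups that do not overlap, so what the plot adds is the size of each gap and the place of WT, which lies on either side.

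Among changed members outside the mitochondrial genome, the largest gains in FPKM were seen in EZR, LDHA, NDRG1, AKAP12, TMEM158 and GPI. EZR, which encodes ezrin, the linker between the plasma membrane and actin in microvilli, had 438, 419 and 414 FPKM in KO1 to KO3 and 717, 699 and 784 FPKM in RE1 to RE3 (0.79 ± 0.12, adjusted p = 0.00705, limma). AKAP12, a scaffold for protein kinase A, had 264, 291 and 211 FPKM and 376, 422 and 366 FPKM (0.61 ± 0.14), and its call was lost without KO1, KO3, RE1, RE2, RE3 or WT2. TMEM158, a membrane protein known to be raised by RAS, had 83.9, 80.7 and 100.1 FPKM and 223, 188 and 247 FPKM (1.31 ± 0.20, adjusted p = 0.00762, limma). The largest losses in FPKM among the same genes were seen in HSPB1, GDF15, SCD, HSPA8, FASN and CHPF. GDF15, a stress-induced cytokine, had 351, 307 and 387 FPKM in KO1 to KO3 and 139, 119 and 155 FPKM in RE1 to RE3 (-1.34 ± 0.20, adjusted p = 0.00642, limma). WT had 105, 134 and 179.5 FPKM, which overlapped the A20-RE range. CHPF, which builds chondroitin chains, fell (-0.90 ± 0.18), and its call was lost without KO1, KO3, RE1, RE2 or RE3.

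The members were then grouped by function into 45 lists, which held 1801 members, with genes allowed in several lists. The median difference was -0.040 on the log2 scale over all members and 0.013 over all genes tested. The keratins, the hypoxia-induced genes and the glycolytic enzymes had the highest list medians, and cholesterol synthesis, DNA replication and the pentose phosphate and one-carbon genes the lowest. A list of a bulk culture averages over cells, so fewer cells of a kind and less RNA per cell cannot be told apart. Counts in the lists are read against the shares given above for all members and for all genes tested. The lists hold only members, of which 5.89% were higher and 7.48% were lower. The lists were drawn up with earlier results of these data known, so their counts describe the data and carry no test of their own. Members named beyond the rule for named genes were chosen for their place in the pathway after their values were seen. Where a list had no member called in a direction, at most 4 of its members differed that way at an unadjusted p under 0.05 in limma, and limma-voom on the recovered reads called at most 4. Leaving out each of the 9 libraries in turn moved many counts, and where a count of 2 or more moved by over 1.5 times its range is given. A count of 0 rose to at most 2 in this way.

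The strand setting of the authors' counting is not given in the sources used here, so the levels of genes whose exons overlap those of another gene are uncertain. Among the genes chosen by the rule for named genes, the largest shares of exonic bases that overlap a gene on the opposite strand were 46.6% in TYMS, 40.5% in DUSP6, 25.1% in RAD54L and 23.2% in ATP5F1E. Overlap on the same strand, which a strand setting does not resolve, was largest in EIF4A1 (48.6%), ALDOA (42.3%), EIF3L (41.1%), TNFRSF10C (39.3%), DDX47 (36.5%), HSPA1B (36.5%), AXIN2 (25.2%), TMED7 (24.0%) and RRM2 (20.2%).

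**Figure D3:**
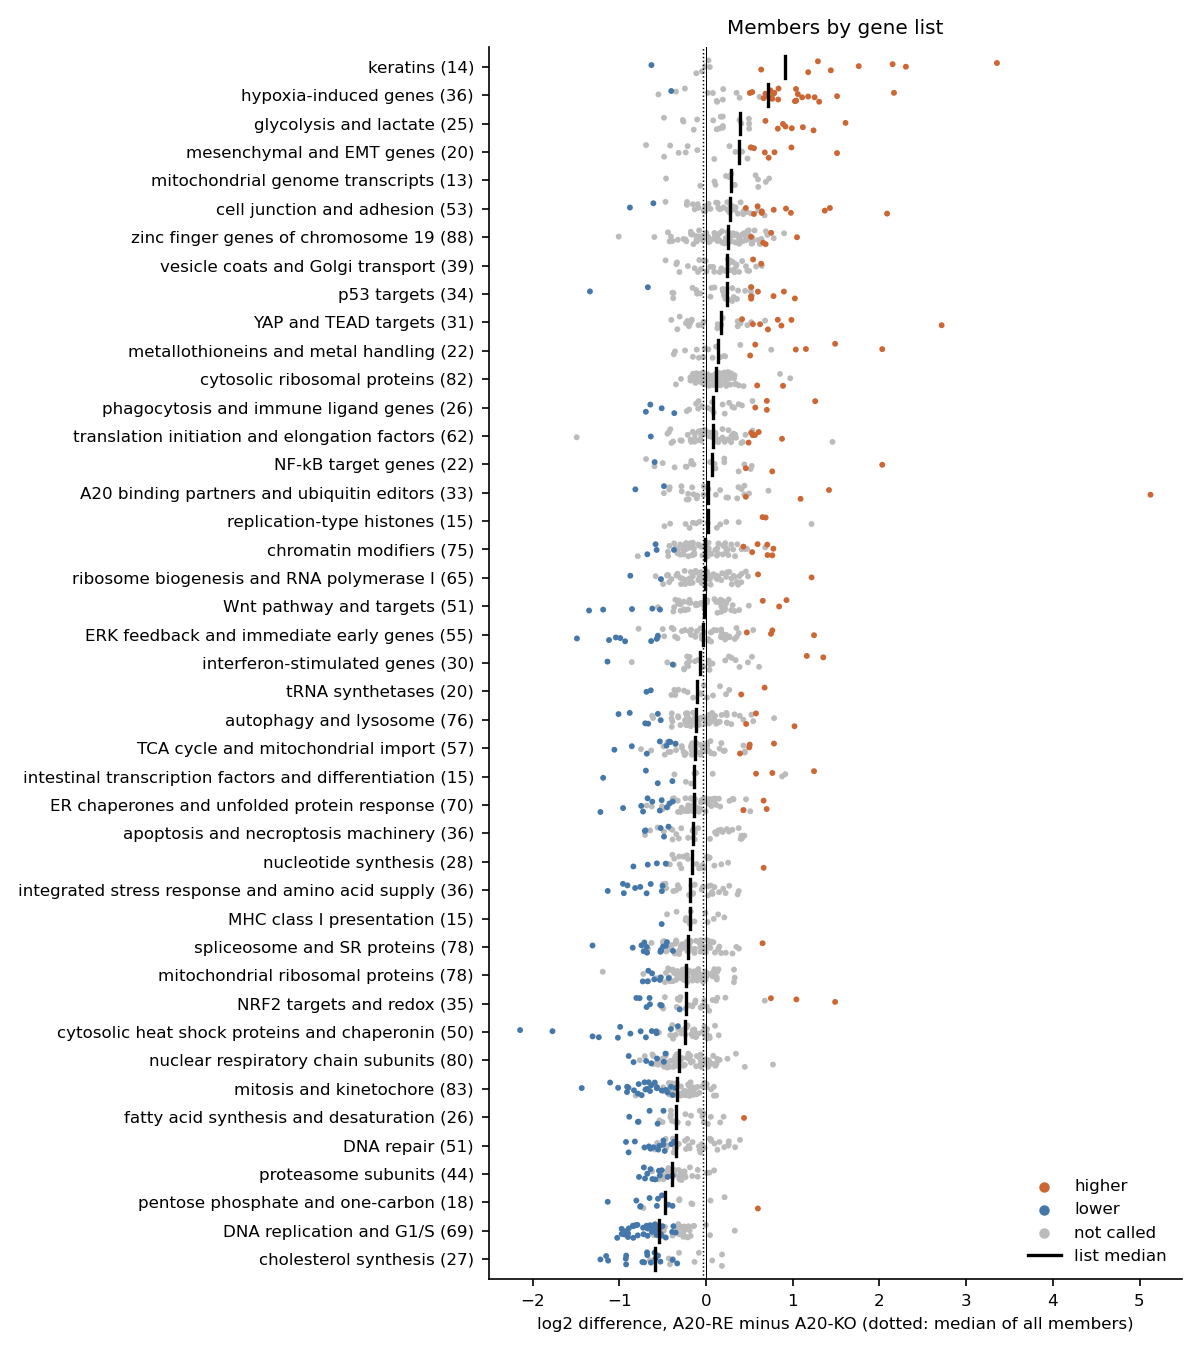
Each point is 1 member, placed by its log2 difference between A20-RE and the libraries labelled A20-KO, in 43 gene lists ordered by median (black bar), with the number of members in brackets. Orange and blue points were called higher and lower, grey points were not called, and the lists run from keratins, at a median of 0.91, down to cholesterol synthesis, at a median of -0.58.

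Most genes of the list induced through HIF, the transcription factor that is stabilised when oxygen is low, were higher. Of 36 members on the list, 23 were higher and 1 was lower, with a median of 0.71. With 1 library left out, the number higher ran from 10 (without RE1) to 24 (without WT1 or WT3). NDRG1 (ENSG00000104419), a stress- and hypoxia-induced protein linked to differentiation and metastasis suppression, had 66.01, 65.2 and 59.6 FPKM in KO1 to KO3 and 291, 272 and 296 FPKM in RE1 to RE3. The groups were far apart, at 63.6 ± 3.47 and 286 ± 12.7 FPKM (SD, n = 3), a 4.49-fold difference (2.17 ± 0.095, SE, adjusted p = 2.13e-05, limma). WT had 23.3, 25.4 and 27.6 FPKM, below both. LOXL2, a collagen-crosslinking oxidase, had 14.5, 14.6 and 12.8 FPKM and 39.6, 38.5 and 41.7 FPKM (1.51 ± 0.12, adjusted p = 0.000449, limma). The transcriptional repressor BHLHE41 had 0.688, 0.793 and 0.413 FPKM and 1.68, 1.62 and 1.68 FPKM (1.30 ± 0.25), and its call was lost without KO1, RE1, RE2 or RE3. BHLHE41 met the rule for members only through A20-RE, where it is high, so the rule favours its rise. The other 20 higher members lay between 1.25 for SLC2A3, a glucose transporter, and 0.51 for ZNF395. PDK1, which keeps pyruvate out of mitochondria, rose by 1.18, the mitophagy receptors BNIP3 and BNIP3L by 1.06 and 1.04, and the collagen hydroxylases P4HA1 and PLOD2 by 1.04 and 0.83. The oxygen sensor EGLN3 rose by 0.71, the carbonic anhydrase CA12 by 0.79 and the histone demethylases KDM3A and KDM4B by 0.76 and 0.78. FAM162A, GBE1, ANGPTL4, MXI1, HILPDA, WSB1, SLC2A1, ERO1A and INSIG2 were also higher, by 0.53 to 1.11. JMJD6 was lower (-0.40), and its call was lost without any 1 A20-KO or A20-RE library. VEGFA, ADM and ANKRD37 were not called, at 0.20, -0.24 and -0.55.

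Glycolysis carries glucose to pyruvate and lactate, and several of its enzymes are themselves HIF targets. Of 25 members, 8 were higher and 0 lower, with a median of 0.39, and the number higher ran from 5 (without RE1) to 10 (without WT1) with 1 library left out. LDHA, the enzyme that makes lactate, had 192, 185 and 201 FPKM in KO1 to KO3 and 415, 392 and 446 FPKM in RE1 to RE3, a 2.17-fold difference (1.12 ± 0.11, adjusted p = 0.00159, limma). GPI, which converts glucose 6-phosphate to fructose 6-phosphate, had 86.1, 79.6 and 94.9 FPKM and 200.4, 185 and 232 FPKM (1.24 ± 0.13, adjusted p = 0.00183, limma). Neither overlapped between the groups, and in WT LDHA had 239.5, 195 and 208 FPKM and GPI 63.1, 64.3 and 79.7 FPKM. HK2, the hexokinase that traps glucose, rose by 0.99, PGK1 by 0.92, ENO2 by 0.89, ALDOC by 0.83 and the glucose transporter SLC2A1 by 0.68. ALDOA had the largest rise of the list, 1.61 ± 0.34, but was listed at only 2.501, 1.82 and 3.396 FPKM in KO1 to KO3 and 7.15, 7.16 and 9.28 FPKM in RE1 to RE3. Its exons are shared in part with another gene on the same strand, as given above, so its reads may have been split, and its call was lost without KO1, KO2, RE1, RE2 or RE3.

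Promoters were read for the members from RefSeq (GRCh38.p14, 250 bases before the start site to 50 after), which matched 8932 of the 11004 members. The HIF core ACGTG, searched on both strands, was present in 16 of 28 (57.1%) promoters of the hypoxia list and 9 of 23 (39.1%) of the glycolysis list, against 27.2% of all members' promoters and 21.4% of all 35116 RefSeq promoters. It also lies within the E-box CACGTG, and other lists held it as often, such as vesicle coats, with 23 of 33 (69.7%). The promoters of LDHA and BHLHE41 are shown because they belong to the lists that rose together, with each ACGTG or its reverse CACGT in capitals. A match describes letters and not binding.
LDHA (chr11:18394313-18394612, plus strand): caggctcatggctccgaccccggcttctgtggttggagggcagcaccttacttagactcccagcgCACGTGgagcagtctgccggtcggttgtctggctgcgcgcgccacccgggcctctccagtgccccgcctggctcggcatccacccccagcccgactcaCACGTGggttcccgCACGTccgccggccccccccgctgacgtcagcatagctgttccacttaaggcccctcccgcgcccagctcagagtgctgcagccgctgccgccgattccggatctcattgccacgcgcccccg
BHLHE41 (chr12:26124988-26125287, minus strand): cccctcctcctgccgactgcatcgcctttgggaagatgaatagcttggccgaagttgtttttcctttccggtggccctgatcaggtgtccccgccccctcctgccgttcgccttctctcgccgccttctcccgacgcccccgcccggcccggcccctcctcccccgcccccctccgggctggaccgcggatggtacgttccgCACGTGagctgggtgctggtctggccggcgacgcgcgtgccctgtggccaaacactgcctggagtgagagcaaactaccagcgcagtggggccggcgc

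The pentose phosphate pathway supplies NADPH and ribose, and the serine and folate pathways supply carbon units for nucleotides. Of 18 members, 10 were lower and 1 was higher, with a median of -0.47. The number lower ran from 3 (without KO1, RE1 or RE2) to 10 (without WT1) with 1 library left out. PHGDH, the entry enzyme of serine synthesis, had 19.9, 18.4 and 24.1 FPKM in KO1 to KO3 and 9.45, 8.26 and 10.5 FPKM in RE1 to RE3 (-1.13 ± 0.16, adjusted p = 0.00481, limma). PSAT1, the next enzyme, had 57.7, 60.7 and 51.6 FPKM and 34.3, 31.6 and 34.3 FPKM (-0.76 ± 0.089, adjusted p = 0.00268, limma). The groups did not overlap for either enzyme. SHMT1, PGD, TYMS, PSPH, RPIA and MTHFD1 were lower as well, at -0.76 to -0.39.

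Cholesterol synthesis had the lowest median of all lists. Of 27 members, 17 were lower and 0 higher, with a median of -0.58, and the number lower ran from 5 (without RE2) to 18 (without WT1) with 1 library left out. LSS, which closes the sterol rings, had 17.6, 16.6 and 16.8 FPKM in KO1 to KO3 and 8.98, 8.62 and 9.15 FPKM in RE1 to RE3, a difference of -0.92 ± 0.13 (SE, log2, adjusted p = 0.00471, limma). FDFT1, which makes squalene, had 43.7, 42.5 and 42.4 FPKM and 25.9, 24.1 and 27.3 FPKM (-0.73 ± 0.086, adjusted p = 0.00268, limma). TM7SF2, a sterol reductase, had 24.7, 23.3 and 30.7 FPKM and 12.4, 10.9 and 12.3 FPKM (-1.13 ± 0.19), and its call was lost without RE2. These 3 genes did not overlap between the groups. WT had 9.13, 11.5 and 13.1 FPKM of LSS and 27.2, 23.9 and 25.8 FPKM of FDFT1, a pair of genes chosen after their values were seen. The falls ran through the pathway, from the mevalonate enzymes ACAT2, MVK, MVD and FDPS (-0.68, -0.92, -0.93 and -0.68) and the squalene steps FDFT1, SQLE (-0.39) and LSS to the late enzyme DHCR7 (-0.71). IDI1, EBP, HSD17B7 and MSMO1 were lower at -0.64 to -0.33, and so was the sterol-regulated gene INSIG1, at -0.58. SREBF2, the transcription factor of the pathway, was not called, at 0.071. The sterol element (TCAC, any base and CCAC) was found in 1 of 20 (5.0%) of the list's promoters, against 1.05% of all members' promoters. The citric acid cycle and import list held it as often, in 3 of 52 (5.77%).

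Fatty acid synthesis followed with 6 of 26 members lower and 1, ELOVL1, higher, at a median of -0.34, and the number lower ran from 0 (without RE1) to 9 (without WT1) with 1 library left out. SCD, which makes monounsaturated fatty acids, had 360.4, 391 and 285 FPKM in KO1 to KO3 and 198, 209.8 and 192 FPKM in RE1 to RE3 (-0.78 ± 0.13, adjusted p = 0.0101, limma). FASN, the fatty acid synthase, had 278, 280.5 and 248 FPKM and 157, 160.4 and 150.03 FPKM (-0.79 ± 0.16, adjusted p = 0.0189, limma). Both groups were separate for each gene. The desaturase FADS2 (-0.89 ± 0.18), ACSL3 (-0.65), ACACA (-0.56) and ELOVL6 (-0.49) also fell, and ELOVL1 rose by 0.44 ± 0.099. The call of SCD was lost without RE1, that of FASN without KO1, KO2, RE1, RE2 or RE3, that of FADS2 without KO1, KO3, RE1, RE2 or RE3 and that of ELOVL1 without KO1, KO2, RE1, RE2 or RE3.

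**Figure D4:**
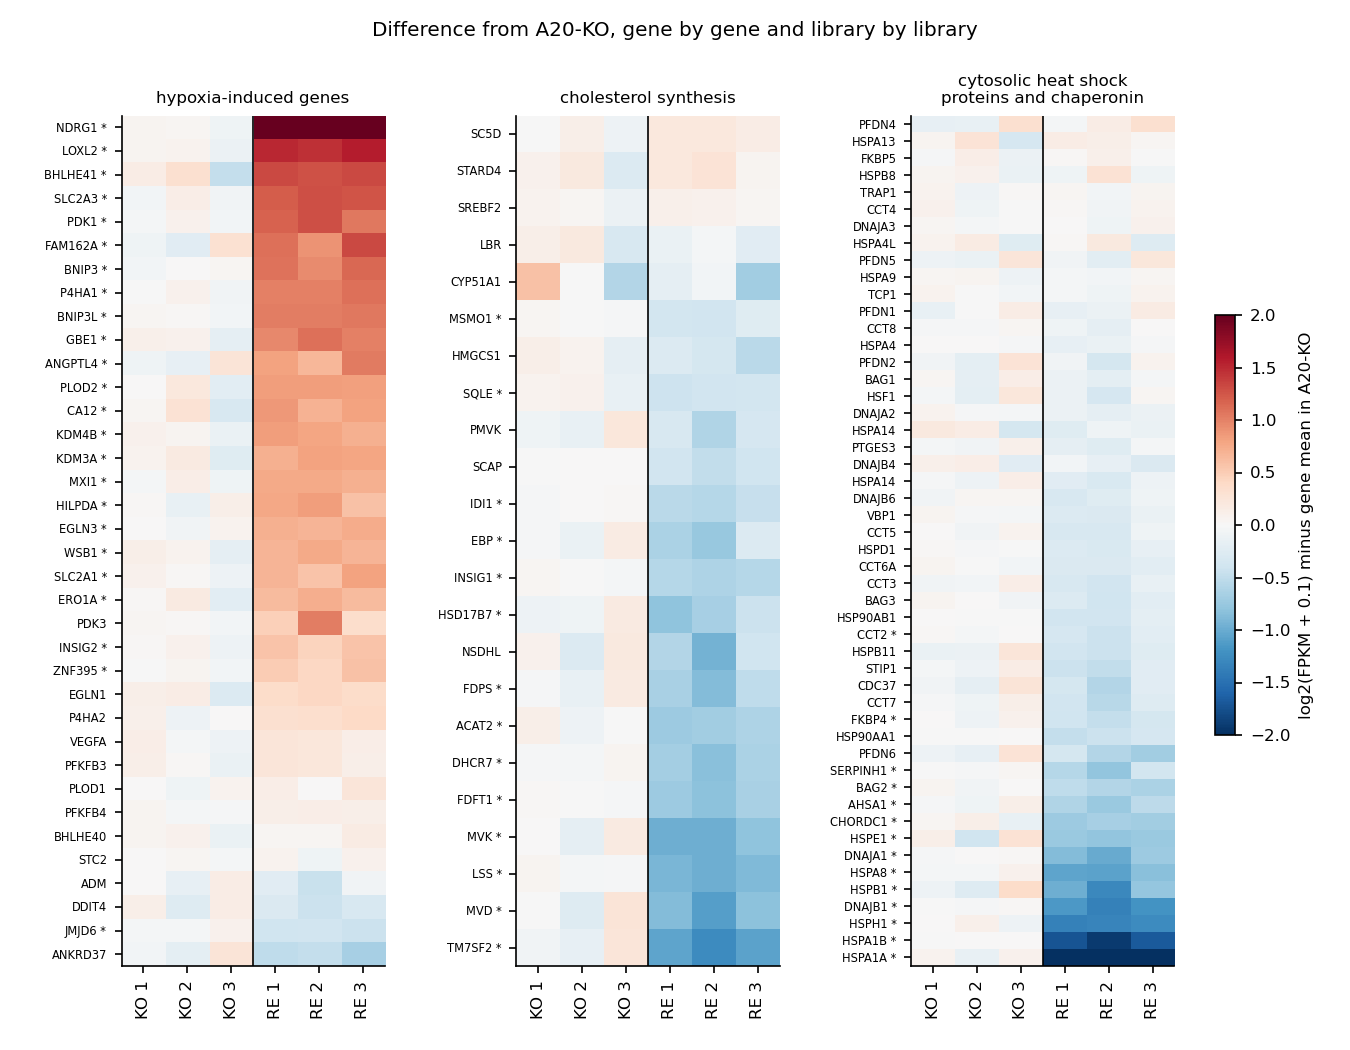
Heat maps of log2(FPKM + 0.1) minus the gene's mean in the 3 libraries labelled A20-KO, for members of the hypoxia, cholesterol and heat shock lists, with 1 column per library and an asterisk at called genes. The colour scale ends at 2 in both directions, which NDRG1 and HSPA1A exceed, HSPA14 stands for 2 genes of that name, and the 3 A20-RE columns are mostly red for hypoxia and blue in the lower rows of the other lists.

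The cytosolic heat shock proteins fold and refold proteins, and HSF1 induces them under stress. Of 50 members of this list, 14 were lower and 0 were higher, with a median of -0.24, and the number lower ran from 7 (without RE1) to 17 (without WT1) with 1 library left out. HSPA1B, an inducible HSP70, had 49.05, 49.6 and 49.7 FPKM in KO1 to KO3 and 14.9, 13.01 and 15.4 FPKM in RE1 to RE3, a difference of -1.77 ± 0.15 (SE, log2, adjusted p = 0.000719, limma). HSPA1A had 3.93, 3.36 and 3.97 FPKM and 0.758, 0.795 and 0.754 FPKM (-2.15 ± 0.30, adjusted p = 0.00519, limma). It met the rule for members only through the libraries labelled A20-KO, where it is high, so the rule favours its fall. HSPA1A and HSPA1B are near-identical copies, so their reads can be split between them, and the level of each is uncertain. In WT HSPA1B had 38.5, 51.9 and 60.8 FPKM, on both sides of the libraries labelled A20-KO. HSPH1, an HSP110 that exchanges nucleotide on HSP70, had 28.3, 30.1 and 26.2 FPKM in KO1 to KO3 and 10.9, 11.3 and 11.7 FPKM in RE1 to RE3 (-1.31 ± 0.11, adjusted p = 0.000719, limma). HSPA8, the constitutive HSC70, had 273, 274 and 298 FPKM and 135, 133 and 157 FPKM (-0.99 ± 0.12, adjusted p = 0.00357, limma). The small heat shock protein HSPB1 had 422, 381 and 584 FPKM and 231, 185 and 265 FPKM (-1.02 ± 0.25), and its call was lost without any 1 A20-KO or A20-RE library or WT2. The remaining 9 were the J-domain proteins DNAJB1 and DNAJA1 (-1.24 and -0.87), the HSP90 cofactors CHORDC1, AHSA1 and FKBP4 (-0.69, -0.63 and -0.41), HSPE1, BAG2, SERPINH1 and the chaperonin subunit CCT2. A heat shock element (GAA, TTC and GAA, or TTC, GAA and TTC, with any 2 bases between each), searched after the values were seen, was found in 5 of 45 (11.1%) of the list's promoters and 0.313% of all members' promoters and 0.49% of all RefSeq promoters. The promoter of HSPA8 is shown as an example with the element in capitals.
HSPA8 (chr11:123062087-123062386, minus strand): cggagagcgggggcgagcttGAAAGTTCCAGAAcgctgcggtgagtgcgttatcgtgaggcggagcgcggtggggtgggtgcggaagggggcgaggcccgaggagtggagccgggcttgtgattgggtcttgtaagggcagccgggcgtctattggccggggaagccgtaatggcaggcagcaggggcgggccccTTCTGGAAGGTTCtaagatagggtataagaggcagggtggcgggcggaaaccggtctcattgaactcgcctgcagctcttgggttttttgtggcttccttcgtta

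The proteasome, which degrades ubiquitin-tagged proteins, had 12 of 44 members lower, 0 higher and a median of -0.39. The number lower ran from 3 (without RE1 or RE2) to 17 (without WT1) with 1 library left out. PSMA7, a ring subunit of the core, had 128, 101 and 148 FPKM in KO1 to KO3 and 69.97, 65.7 and 83.9 FPKM in RE1 to RE3 (-0.77 ± 0.17, adjusted p = 0.0301, limma). PSMC3, an ATPase of the cap, fell (-0.72 ± 0.14), as did PSME2, a subunit of the alternative activator (-0.70 ± 0.15). The call of PSMA7 was lost without KO1, KO3, RE1, RE2 or WT2, that of PSMC3 without KO1, KO3, RE1 or RE2 and that of PSME2 without KO1, KO3, RE1 or RE2.

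Chaperones of the endoplasmic reticulum and genes of the unfolded protein response moved in both directions, with 11 of 70 members lower and 3 higher, at a median of -0.13. The number lower ran from 0 (without RE1) to 14 (without WT1) and the number higher from 0 (without KO1, RE1, RE2 or RE3) to 5 (without WT1) with 1 library left out. CALR (ENSG00000179218, chromosome 19, 12938578 to 12944489, plus strand), the calcium-binding lectin calreticulin that also acts as an eat-me signal on the cell surface, had 287, 273 and 297 FPKM in KO1 to KO3 and 196, 189 and 216 FPKM in RE1 to RE3. The groups were separate, with a difference of -0.51 ± 0.12 (SE, log2, adjusted p = 0.0336, limma), and WT had 301, 335 and 383 FPKM. The call of CALR was lost without any 1 A20-KO or A20-RE library or WT2. SDF2L1, a cofactor of the HSP70 of this compartment, had 72.2, 56.6 and 86.9 FPKM and 30.7, 25.8 and 35.3 FPKM (-1.22 ± 0.23, adjusted p = 0.0172, limma), and CRELD2, a stress-induced secreted protein, 11.8, 9.14 and 12.7 FPKM and 5.69, 5.204 and 6.19 FPKM (-0.96 ± 0.16, adjusted p = 0.0108, limma). MANF, a secreted stress factor, fell (-0.75 ± 0.19). The call of SDF2L1 was lost without KO1, KO3, RE1 or RE2, that of CRELD2 without KO1, RE1 or RE2 and that of MANF without any 1 A20-KO or A20-RE library or WT2. SEC11C, DNAJB11, EDEM1, HERPUD1, XBP1, SELENOS and PDIA4 were lower at -0.73 to -0.38. The higher members were the cargo receptor LMAN1 (0.70), the oxidase ERO1A (0.66), which is also on the hypoxia list, and TXNDC11 (0.43). Each of these calls was lost without KO1, RE1, RE2 or RE3, among others for ERO1A and TXNDC11. The ER stress element (CCAAT and CCACG with any 9 bases between them) was found in 8 of 64 (12.5%) of the list's promoters, against 0.134% of all members' promoters and 0.0769% of all RefSeq promoters. It is shown in capitals for CALR and CRELD2, which fell.
CALR (chr19:12938359-12938658, plus strand): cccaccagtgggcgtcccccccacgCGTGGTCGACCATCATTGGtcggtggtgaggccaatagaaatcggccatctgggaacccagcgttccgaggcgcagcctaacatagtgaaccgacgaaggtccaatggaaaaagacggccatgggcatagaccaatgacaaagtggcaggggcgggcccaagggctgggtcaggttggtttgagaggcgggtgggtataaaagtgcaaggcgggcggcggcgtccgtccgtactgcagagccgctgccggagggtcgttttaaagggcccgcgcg
CRELD2 (chr22:49918384-49918683, plus strand): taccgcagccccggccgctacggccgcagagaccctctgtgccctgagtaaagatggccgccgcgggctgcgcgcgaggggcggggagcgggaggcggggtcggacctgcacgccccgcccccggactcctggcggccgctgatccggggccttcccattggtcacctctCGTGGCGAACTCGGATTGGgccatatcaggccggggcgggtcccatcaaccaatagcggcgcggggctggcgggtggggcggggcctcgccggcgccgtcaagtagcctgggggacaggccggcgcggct

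The integrated stress response raises amino acid supply through ATF4, and 10 of its 36 members were lower and 0 were higher, at a median of -0.18. The number lower ran from 3 (without KO1 or RE2) to 12 (without WT1) with 1 library left out. PCK2, a mitochondrial enzyme that feeds serine synthesis, had 13.8, 12.9 and 14.02 FPKM in KO1 to KO3 and 7.301, 6.301 and 7.397 FPKM in RE1 to RE3 (-0.95 ± 0.11, adjusted p = 0.00256, limma). The glycine transporter SLC6A9 fell (-0.96 ± 0.18), a call lost without KO1, RE2 or RE3, and ATF5, SLC1A5, SLC3A2, CHAC1 and GPT2 were lower at -0.91 to -0.50. PHGDH, PSAT1 and PSPH are shared with the one-carbon list. The ATF4 composite element (TGATG, any base and AA) was found in 6 of 29 (20.7%) of this list's promoters, against 1.5% of all members' promoters and 3.62% of all RefSeq promoters. The tRNA synthetases, which moved in both directions, held it more often, in 6 of 16 (37.5%). Of the 20 tRNA synthetases, 2 were higher (DARS at 0.68 and LARS at 0.41) and 2 were lower (MARS at -0.69 and WARS at -0.64). The calls of DARS and LARS were lost without RE1 or RE2, among others for LARS, and those of MARS and WARS were kept with any library left out. Among the synthetases the number higher ran from 0 (without RE1 or RE2) to 3 (without WT1) and the number lower from 2 (without KO1, KO2, KO3, RE1, RE2, RE3 or WT2) to 5 (without WT1).

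Of 35 NRF2 targets and redox members, 3 were higher and 8 lower, at a median of -0.24, and the number lower ran from 0 (without KO1, RE1 or RE2) to 11 (without WT1) with 1 library left out. HMOX1, the heme-degrading enzyme, had 18.4, 18.6 and 22.8 FPKM in KO1 to KO3 and 56.9, 52.04 and 58.9 FPKM in RE1 to RE3, a 2.81-fold difference (1.49 ± 0.18, adjusted p = 0.00278, limma), and 7.82, 10.5 and 13.4 FPKM in WT. GCLC, the rate-limiting enzyme of glutathione synthesis, had 10.8, 10.96 and 8.64 FPKM and 20.7, 21.4 and 20.4 FPKM (1.04 ± 0.11, adjusted p = 0.00194, limma). TXNRD1, a thioredoxin reductase, rose by 0.75 ± 0.099 (adjusted p = 0.00425, limma). These 3 calls were kept with any library left out. The lower members included PGD, KEAP1, SLC3A2, EPHX1, AIFM2, UGDH and PRDX3, at -0.77 to -0.30. KEAP1 is the sensor that holds NRF2 down, and its call was lost without KO1, RE1 or RE2. SLC3A2 lost its call without KO1, KO3, RE1, RE2 or RE3. The antioxidant element (TGAC, any 3 bases and GC) was found in 7 of 27 (25.9%) of the list's promoters, against 15.1% of all members' promoters. The proteasome list held it more often, in 13 of 38 (34.2%).

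Among genes that bind or move metals, 6 of 22 members were higher and 0 lower, at a median of 0.14, and the number higher ran from 3 (without KO1 or RE1) to 6 (without WT1) with 1 library left out. LCN2, a secreted protein that binds iron-carrying siderophores, had 0.283, 0.255 and 0.483 FPKM in KO1 to KO3 and 2.03, 1.44 and 1.55 FPKM in RE1 to RE3 (2.03 ± 0.27, adjusted p = 0.00425, limma). WT had 3.83, 3.16 and 5.73 FPKM, above both groups. The metallothionein MT1X had 10.7, 6.58 and 13.7 FPKM and 20.9, 19.4 and 26.7 FPKM (1.15 ± 0.31, adjusted p = 0.0499, limma), and its call was lost without any 1 A20-KO or A20-RE library, WT2 or WT3. SLC30A1, the zinc exporter, rose by 1.03, the ferrireductase STEAP3 by 0.57 and the ferritinophagy receptor NCOA4 by 0.51, and HMOX1 is also on this list. The metal element, TGCACNC or TGCGCNC, was found in 8 of 16 of the list's promoters, against 39.8% of all members' promoters and 29.6% of all RefSeq promoters. Lists that did not rise held it as often, such as the nuclear respiratory chain, with 36 of 65 (55.4%), and DNA replication, with 30 of 58 (51.7%). In MT1X the element was matched 4 times, in capitals.
MT1X (chr16:56682220-56682519, plus strand): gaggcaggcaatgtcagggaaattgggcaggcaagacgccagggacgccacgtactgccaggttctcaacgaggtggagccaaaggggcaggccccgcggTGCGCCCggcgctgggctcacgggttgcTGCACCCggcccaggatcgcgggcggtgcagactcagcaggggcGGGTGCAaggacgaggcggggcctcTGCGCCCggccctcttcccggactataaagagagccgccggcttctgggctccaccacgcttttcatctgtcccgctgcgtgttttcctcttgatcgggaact

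DNA replication showed the largest number of calls of any list. Of 69 members, 40 were lower and 0 were higher, at a median of -0.54, and the number lower ran from 18 (without RE1 or RE2) to 48 (without WT1) with 1 library left out. Of mitosis and kinetochore genes, 25 of 83 were lower (-0.34 at the median), with a range from 9 (without RE1 or RE2) to 35 (without WT1). Of DNA repair genes, 16 of 51 were lower (-0.35 at the median), with a range from 4 (without RE1 or RE2) to 21 (without WT1). None was higher in either list. ASF1B, a histone chaperone, had 39.3, 40.9 and 40.1 FPKM in KO1 to KO3 and 21.2, 17.5 and 20.4 FPKM in RE1 to RE3 (-1.03 ± 0.14, adjusted p = 0.00529, limma), and CDC45, a part of the replicative helicase, had 7.59, 7.72 and 10.3 FPKM and 3.95, 4.29 and 4.53 FPKM (-0.97 ± 0.13, adjusted p = 0.00425, limma). MYBL2, a transcription factor of cell cycle genes, had 38.8, 39.4 and 44.3 FPKM and 18.6, 17.6 and 20.6 FPKM (-1.11 ± 0.15, adjusted p = 0.00425, limma). The groups were separate for all 3 genes. All 6 subunits of the MCM2 to MCM7 helicase were lower, from -0.52 for MCM6 to -0.93 for MCM5, as were PCNA (-0.60), FEN1 (-0.89), LIG1 (-0.79) and E2F1 (-0.90). Mitotic genes included KIF18B (-1.01), FOXM1 (-0.83), CCNB1 (-0.71), AURKA (-0.65), AURKB (-0.63) and PLK1 (-0.59). Repair genes included RAD54L (-0.89). GINS2, a replication gene, fell as well (-0.97), and its call was lost without RE1 or RE2.

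The comparison of the libraries labelled A20-KO with WT shares those libraries with the one above. Their levels are given side by side. On the mean log2 level of the DNA replication list, set to 0 for the mean of the libraries labelled A20-KO, WT1 to WT3 stood at 0.89, 0.80 and 0.86 and RE1 to RE3 at -0.52, -0.55 and -0.45. For mitosis, the values were 0.88, 0.67 and 0.65 in WT and -0.41, -0.38 and -0.33 in A20-RE. In both lists the libraries labelled A20-KO stood between WT and A20-RE. For the hypoxia list, WT stood at -0.41, -0.37 and -0.32 and A20-RE at 0.63, 0.61 and 0.64, again on opposite sides of the libraries labelled A20-KO. For cholesterol synthesis, WT stood at -0.45, -0.35 and -0.28 and A20-RE at -0.53, -0.59 and -0.51, both below the libraries labelled A20-KO.

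**Figure D5:**
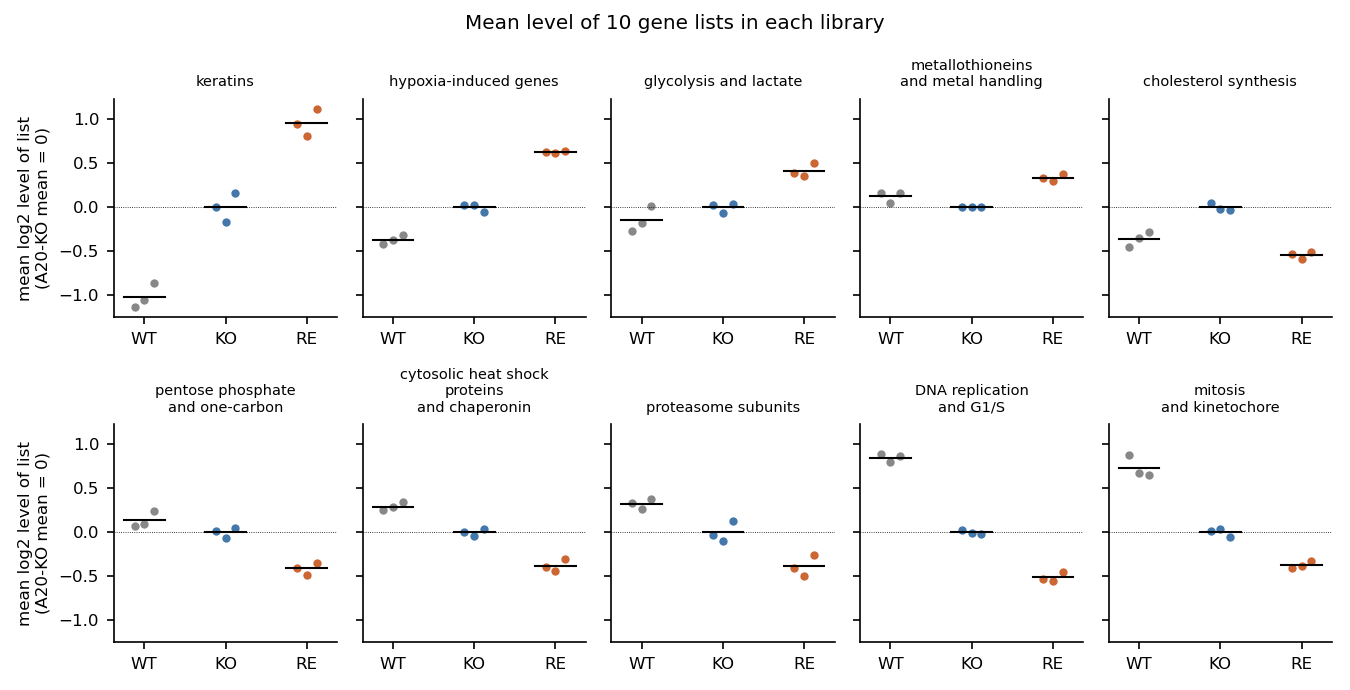
Mean log2 level of the members of 10 lists in each library, relative to the mean of the 3 libraries labelled A20-KO (0, dotted), with 1 point per library and a bar at the group mean. The A20-RE points are above 0 in the keratin, hypoxia, glycolysis and metal panels and below 0 in the other 6, and WT lies on the side opposite to A20-RE in 8 panels.

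Of 15 replication-type histone genes that were members, 2 were higher, HIST1H2BD (0.69 ± 0.15) and HIST1H2AC (0.65 ± 0.14), and both calls were lost without KO1, KO2, RE1, RE2 or RE3, while the number higher ran from 0 (without KO1, KO2, RE1, RE2 or RE3) to 3 (without WT1). Histone genes are close copies of each other, so their reads may be shared. Both are known to be made as polyadenylated transcripts as well. Of 34 p53 target genes, 7 were higher and 2 lower, at a median of 0.24, and the number higher ran from 1 (without KO1 or RE1) to 10 (without WT1) with 1 library left out. PLK2, a kinase, had 16.3, 15.9 and 16.5 FPKM in KO1 to KO3 and 31.7, 32.7 and 35.2 FPKM in RE1 to RE3 (1.02 ± 0.079, adjusted p = 0.000449, limma). GDF15, described above, was among the lower members. The higher members other than PLK2 were TNFRSF10C, ZMAT3, MDM2, DDB2, PERP and POLH, at 0.52 to 0.90, and CDKN1A was not called, at 0.22. TNFRSF10C lost its call without any 1 A20-KO or A20-RE library or WT2 and ZMAT3 without KO1, KO3, RE1, RE2, RE3 or WT2. Among 36 genes of apoptosis and necroptosis, 5 were lower and 0 were higher. They were the mitochondrial oxidoreductase AIFM1 (-0.71 ± 0.12), BIRC5, which encodes survivin (-0.70 ± 0.13), the caspase CASP6 (-0.52 ± 0.12), the TNF receptor TNFRSF1A (-0.49 ± 0.13) and the BCL2 family member BID (-0.43 ± 0.11). AIFM1 lost its call without RE1, BIRC5 without KO1, KO3, RE1 or RE2, and CASP6, TNFRSF1A and BID without KO1, KO2, KO3, RE1, RE2 or WT2, among others. The number lower ran from 0 (without RE1) to 11 (without WT1) with 1 library left out.

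Keratins, the intermediate filaments of epithelia, had the highest median of all lists. Of 55 keratin genes, 14 were members. Some, such as KRT14 and KRT16, met the rule only through A20-RE, where they are high, so the rule favours a high median. Of 14 members, 8 were higher and 1, KRT23, was lower, with a median of 0.91, and the number higher ran from 5 (without KO1, RE1 or RE3) to 8 (without KO3, WT1, WT2 or WT3) with 1 library left out. KRT80 had 3.01, 3.15 and 2.41 FPKM in KO1 to KO3 and 12.999, 13.1 and 12.7 FPKM in RE1 to RE3, a 4.45-fold difference (2.15 ± 0.12, SE, adjusted p = 0.000113, limma). KRT16, a keratin of wounded and proliferating epidermis, had 0.815, 0.509 and 1.07 FPKM and 4.18, 3.94 and 4.47 FPKM (2.30 ± 0.23, adjusted p = 0.0015, limma). The rises were mostly in keratins of stratified, ductal or hair-forming epithelia, with KRT7 at 1.76, KRT15 at 1.44, KRT81 at 1.29, KRT32 at 1.18 and KRT13 at 0.64 beside KRT14. The abundant keratins of simple epithelium were not called, KRT8 at -0.0091, KRT18 at 0.028 and KRT19 at 0.043. KRT23 fell (-0.63 ± 0.13), and its call was lost without KO1, KO3, RE1 or RE2. Several keratin genes have close paralogs and pseudogenes, so reads of KRT14 and KRT16 may be shared with them.

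Of 53 junction and adhesion members, 11 were higher and 2 lower, at a median of 0.28, and the number higher ran from 3 (without RE1 or RE2) to 16 (without WT1) and the number lower from 0 (without RE1 or RE2) to 2 (without WT1 or WT3) with 1 library left out. LAMB3, a chain of the main laminin of epithelial basement membranes, had 18.4, 18.005 and 18.5 FPKM in KO1 to KO3 and 50.2, 47.2 and 51.02 FPKM in RE1 to RE3 (1.43 ± 0.12, adjusted p = 0.000719, limma). The groups were separate. ITGA6, the integrin chain that binds this laminin, rose by 0.98, and NECTIN4, ALCAM, ITGB1, DSC2, L1CAM, ITGA5 and CGN rose by 0.46 to 0.92. CLDN15, a claudin, fell (-0.88 ± 0.15), as did EVPL, which encodes envoplakin (-0.61 ± 0.16). The call of CLDN15 was lost without RE1 or RE2 and that of EVPL without any 1 A20-KO or A20-RE library or WT2. Of 20 mesenchymal members, 7 were higher and 0 lower, at a median of 0.38, and the number higher ran from 3 (without KO1, RE1, RE2 or RE3) to 9 (without WT1) with 1 library left out. They included LOXL2, the metalloprotease inhibitor TIMP3 (0.79 ± 0.11), CAV2, TGFBR2, ITGA5 and CAV1.

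YAP and TEAD control genes of growth and matrix. Of 31 members, 8 were higher and 0 lower, at a median of 0.17, and the number higher ran from 3 (without RE1) to 11 (without WT1) with 1 library left out. LATS2, the kinase that restrains YAP, rose by 0.87 ± 0.14, a call lost without RE1, and F3, CTGF, GADD45B, AMOTL2 and MYOF rose by 0.41 to 0.83.

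ERK feedback and immediate early genes moved in both directions, with 8 of 55 members lower and 4 higher. The median was -0.037, and its sign turned under other scalings. The number lower ran from 4 (without KO1, RE1 or RE2) to 10 (without WT1) and the number higher from 2 (without KO1, KO2, KO3, RE1, RE2, RE3 or WT2) to 8 (without WT1) with 1 library left out. Beside DUSP6, the lower members were the early transcription factors EGR1, EGR2 and EGR3 (-0.99, -1.12 and -0.93), the ETS factors ETV1 and ETV5 (-1.04 and -0.57), DUSP5 (-0.63) and SPRY4 (-0.56). EGR2 lost its call without KO1, RE1 or RE2. Those higher were KLF4, KLF5, DUSP10 and the EGFR inhibitor ERRFI1 (0.47). KLF4, a transcription factor of differentiated epithelium, had 28.7, 28.2 and 24.7 FPKM in KO1 to KO3 and 65.01, 62.2 and 66.3 FPKM in RE1 to RE3, and 12.1, 15.9 and 17.5 FPKM in WT. It rose by 1.25 ± 0.13 (adjusted p = 0.00192, limma), and KLF5, which acts in crypt cells, rose by 0.76 ± 0.12 (adjusted p = 0.00821, limma). DUSP10 rose by 0.75 ± 0.19, and its call was lost without any 1 A20-KO or A20-RE library or WT2.

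Of 51 Wnt pathway members, 5 were lower and 3 higher, at a median of -0.021 whose sign turned under other scalings, and the number lower ran from 2 (without RE1 or RE2) to 8 (without WT1) and the number higher from 1 (without RE1) to 5 (without WT1) with 1 library left out. SOX9, a crypt transcription factor and Wnt target, had 48.8, 53.2 and 39.2 FPKM in KO1 to KO3 and 19.99, 20.2 and 21.2 FPKM in RE1 to RE3 (-1.19 ± 0.13, adjusted p = 0.00183, limma). AXIN2, the feedback scaffold often used to read Wnt activity, had 5.72, 5.85 and 5.303 FPKM and 2.86, 3.19 and 3.15 FPKM (-0.85 ± 0.12, adjusted p = 0.0062, limma). WT had 9.797, 12.97 and 12.6 FPKM of AXIN2, above both groups. SP5 fell (-1.35 ± 0.28), a call lost without any 1 A20-KO or A20-RE library, and RNF43 and GSK3A were lower too, at -0.62 and -0.53. The secreted inhibitor DKK1 had 123, 112 and 119 FPKM in KO1 to KO3 and 212, 206 and 216 FPKM in RE1 to RE3 (0.84 ± 0.085, adjusted p = 0.0015, limma), and the ligands WNT16 and WNT7B rose by 0.93 ± 0.15 and 0.65 ± 0.15. WNT16 lost its call without RE1 and WNT7B without any 1 A20-KO or A20-RE library or WT2. Of 15 intestinal identity members, KLF4, KLF5 and ELF3 were higher and SOX9, HES1, SOX4 and CA2 were lower, and the number lower ran from 1 (without KO1, KO2, RE1 or RE2) to 4 (without WT1) with 1 library left out. ELF3 rose by 0.58 ± 0.14, a call lost without any 1 A20-KO or A20-RE library or WT2, and HES1 and SOX4 fell (-0.69 ± 0.17 and -0.56 ± 0.12), calls lost without KO1, KO2, RE1 or RE2, among others.

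Among partners of A20 and other ubiquitin editors, 4 of 33 members were higher, including TNFAIP3, and 2 were lower. With 1 library left out, the number higher ran from 2 (without RE1 or RE2) to 5 (without WT1) and the number lower from 0 (without KO1, KO2, KO3, RE1, RE2, RE3 or WT2) to 4 (without WT1). The median was 0.024, and its sign turned under another scaling. YOD1, a deubiquitinase of the same OTU family as A20, had 4.26, 4.47 and 3.63 FPKM in KO1 to KO3 and 10.8, 11.98 and 10.6 FPKM in RE1 to RE3 (1.42 ± 0.19, adjusted p = 0.00471, limma). ITCH, a ubiquitin ligase that works with A20, had 12.1, 12.6 and 8.16 FPKM and 22.6, 26.2 and 20.6 FPKM (1.09 ± 0.19, adjusted p = 0.0114, limma), and its call was lost without RE1 or RE2. The adaptor TNIP1 rose by 0.46 ± 0.12, and the TNF pathway genes TRAF2 and TNFRSF1A fell (-0.82 ± 0.18 and -0.49 ± 0.13). Each of these 3 calls was lost without any 1 of KO1 to KO3 and RE1 to RE3, and without WT2.

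Of 22 NF-kB target genes, 3 were higher and 1 lower, at a median of 0.073. Leaving out 1 library, the number higher ran from 2 (without KO1, KO2, KO3, RE1, RE2, RE3 or WT2) to 5 (without WT1) and the number lower from 0 (without KO1 or RE1) to 4 (without WT1). LCN2 and the proteoglycan SDC4 rose, SDC4 from 52.9, 56.01 and 53.5 FPKM to 95.5, 88.1 and 92.4 FPKM (0.76 ± 0.11, adjusted p = 0.0059, limma), and TNIP1 was the third. NFKB1, which encodes the NF-kB subunit p105, fell from 5.596, 5.33 and 4.59 FPKM to 3.51, 3.52 and 3.13 FPKM (-0.59 ± 0.11, adjusted p = 0.014, limma), a call lost without KO1 or RE1. Of 30 interferon-stimulated genes, OASL (1.16 ± 0.13) and GBP2 (1.35 ± 0.29) rose and IFI6 (-1.14 ± 0.16) and PARP12 (-0.38 ± 0.10) fell, with a median of -0.065. Here the number higher ran from 1 (without KO1, KO2, KO3, RE1, RE2 or RE3) to 3 (without WT1) and the number lower from 1 (without KO1, KO2, RE1, RE2, RE3 or WT2) to 2 (without KO3, WT1 or WT3) with 1 library left out. OASL, an antiviral protein, had 2.37, 2.82 and 2.62 FPKM in KO1 to KO3 and 5.3997, 5.74 and 6.77 FPKM in RE1 to RE3, and IFI6, a mitochondrial antiviral protein, had 32.4, 25.1 and 40.2 FPKM and 14.98, 13.6 and 14.9 FPKM. GBP2 lost its call without any 1 A20-KO or A20-RE library, and PARP12 without any 1 A20-KO or A20-RE library or WT2. In the 15 members of MHC class I presentation, CALR was the only call, and the median was -0.19.

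Of 26 genes of phagocytosis and immune ligands, 4 were higher and 4 lower, at a median of 0.080. Over the libraries left out in turn, the number higher ran from 2 (without KO1, KO3, RE1, RE2 or RE3) to 7 (without WT1) and the number lower from 1 (without KO1, KO2, KO3, RE1 or RE2) to 4 (without WT1 or WT3). CD55, which protects cells from complement, had 9.75, 9.23 and 8.85 FPKM in KO1 to KO3 and 22.1, 20.7 and 24.3 FPKM in RE1 to RE3, a 2.39-fold difference (1.26 ± 0.13, adjusted p = 0.00154, limma), and CD59, another complement inhibitor, rose by 0.57. CD47, the do-not-eat-me signal, had 8.11, 8.25 and 6.73 FPKM and 12.4, 12.8 and 12.3 FPKM (0.70 ± 0.14, adjusted p = 0.0199, limma), and its call was lost without KO1, KO3, RE1, RE2 or RE3. LRP1, a receptor that binds calreticulin, rose by 0.70 ± 0.17, a call lost without any 1 A20-KO or A20-RE library, WT2 or WT3. MICB, a ligand of the killer-cell receptor NKG2D, had 13.9, 14.5 and 12.7 FPKM in KO1 to KO3 and 8.44, 8.14 and 8.73 FPKM in RE1 to RE3 (-0.69 ± 0.083, adjusted p = 0.00278, limma), against 18.8, 18.8 and 18.7 FPKM in WT. MICA, a related ligand, fell (-0.64 ± 0.13), a call lost without KO1, KO2, KO3, RE1 or RE2, and HMGB1 was lower, at -0.37. CALR was the other lower member.

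Mitochondrial genes did not move as 1 set. The 13 transcripts of the mitochondrial genome had a median of 0.29 with no call in limma, 3 at an unadjusted p under 0.05 and 4 with limma-voom. MT-CO2, among the most abundant of them, had 11488, 11759 and 16987 FPKM in KO1 to KO3 and 18427, 17403 and 24983 FPKM in RE1 to RE3, a difference of 0.60 ± 0.34 that did not pass the test (adjusted p = 0.306, limma). Of 80 nuclear-encoded respiratory chain subunits, 7 were lower and 0 higher, at a median of -0.32, and the number lower ran from 0 (without KO3, RE1 or RE2) to 12 (without WT1) with 1 library left out. ATP5IF1, an inhibitor of the ATP synthase, fell (-0.89 ± 0.17), as did NDUFS6 (-0.84 ± 0.20) and ATP5F1E (-0.69 ± 0.15), and each call was lost without KO3, RE1 or RE2. Of 78 mitochondrial ribosomal proteins, 8 were lower and 0 higher (-0.23 at the median), with a range from 0 (without RE1 or RE2) to 13 (without WT1). Of 57 citric acid cycle and import members, 8 were lower, including TIMM13 (-1.06), TOMM40 (-0.86) and IDH1 (-0.68), and 4 were higher, including GLUD1 (0.78), glutamate dehydrogenase, at 32.5, 31.7 and 26.9 FPKM in KO1 to KO3 and 51.1, 50.8 and 54.7 FPKM in RE1 to RE3. In this list the number higher ran from 1 (without KO1, KO2, KO3, RE1, RE2 or RE3) to 7 (without WT1) and the number lower from 1 (without KO1, RE1 or RE2) to 12 (without WT1) with 1 library left out. TIMM13 lost its call without KO1, RE1 or RE2 and TOMM40 without KO1, KO3, RE1, RE2 or RE3. The read share of the mitochondrial genome moved with these results, as given above. With the deposited values divided by the share of reads outside the mitochondrial genome, 3 respiratory chain subunits and 5 mitochondrial ribosomal proteins were lower. With limma-voom on the recovered reads 16 and 15 were.

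Cytosolic ribosomal proteins had 2 of 82 members higher, RPL36A (0.89 ± 0.16) and RPL7L1 (0.59 ± 0.099), a nucleolar relative of RPL7, and 0 lower, at a median of 0.11. RPL36A lost its call without RE1 or RE2, and the number higher ran from 1 (without RE1 or RE2) to 3 (without WT1 or WT3) with 1 library left out. Among 62 translation factors, 6 initiation factors were higher, EIF4A1, EIF3L, EIF3D, EIF4B, EIF5 and EIF4A2, at 0.49 to 0.88, and EIF5A was lower, at -0.64 ± 0.14, a call lost without KO1, KO3, RE1, RE2, RE3 or WT2. For these factors the number higher ran from 2 (without KO1, KO2, RE1 or RE3) to 11 (without WT1) and the number lower from 0 (without KO1, KO3, RE1, RE2, RE3 or WT2) to 4 (without WT1) with 1 library left out. EIF3L lost its call without any 1 A20-KO or A20-RE library and EIF3D without KO1, KO2, RE1 or RE3. The list median, 0.078, turned its sign under another scaling. EIF4A1 and EIF3L share exonic bases with other genes, as given above. Of 65 ribosome biogenesis members, DDX47 (1.22 ± 0.26) and UTP14A (0.60 ± 0.10) rose and TAF1A (-0.87 ± 0.13) and RRP1 (-0.52 ± 0.12) fell. DDX47 lost its call without KO2, KO3, RE1, RE2 or RE3, UTP14A without KO1 or RE1 and RRP1 without KO1, KO3, RE1, RE2, RE3 or WT2. In this list the number higher ran from 0 (without RE1) to 11 (without WT1) and the number lower from 1 (without KO1, KO3, RE1, RE2, RE3 or WT2) to 6 (without WT1) with 1 library left out. Of 78 splicing members, 14 were lower and 1, SRSF5, was higher, at a median of -0.21, and the number lower ran from 3 (without RE1 or RE2) to 24 (without WT1) and the number higher from 1 (without KO1, KO2, KO3, RE1, RE2, RE3, WT2 or WT3) to 3 (without WT1) with 1 library left out. HNRNPM, a splicing regulator of epithelial and mesenchymal isoforms, had 74.96, 65.9 and 77.99 FPKM in KO1 to KO3 and 29.8, 26.9 and 31.4 FPKM in RE1 to RE3 (-1.31 ± 0.13, adjusted p = 0.00123, limma). SRSF5 had 30.05, 30.2 and 32.3 FPKM and 47.3, 44.7 and 53.97 FPKM (0.65 ± 0.090, adjusted p = 0.00512, limma).

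Of 76 autophagy and lysosome members, 3 were higher and 6 lower. Over all members 5.89% were higher and 7.48% lower, so these counts do not set the list apart. With 1 library left out the number higher ran from 1 (without KO1, KO3, RE1, RE2 or RE3) to 6 (without WT1) and the number lower from 2 (without KO1, RE1 or RE2) to 9 (without WT1 or WT3). ATG12, a ubiquitin-like protein of autophagosome formation, had 7.62, 7.57 and 6.95 FPKM in KO1 to KO3 and 14.2, 15.5 and 15.4 FPKM in RE1 to RE3 (1.02 ± 0.11, adjusted p = 0.00195, limma), and the cargo receptors NBR1 and OPTN rose by 0.58 and 0.46, calls lost without KO1, KO3, RE1, RE2 or RE3. The lower members included the lysosomal proton pump subunits ATP6V0E2 (-1.01 ± 0.15) and ATP6V0D1 (-0.88 ± 0.17), MCOLN1, GLA and LAMP1. ATP6V0D1 lost its call without KO1, KO3, RE1 or RE2. Of 39 vesicle coat members, SEC31A (0.64 ± 0.12) and TMED7 (0.54 ± 0.13) were higher, close to the share of all members, with a median of 0.24. Both calls were lost without KO1, KO3, RE1 or RE2, and the number higher ran from 0 (without KO1, KO3, RE1 or RE2) to 13 (without WT1) with 1 library left out. Of 75 chromatin modifiers, 7 were higher, including KDM4B, KDM3A and JARID2 (0.71), and 4 lower, DNMT1 (-0.68), EZH2 (-0.58 ± 0.084), EHMT2 (-0.57) and HDAC1 (-0.37). EZH2, the Polycomb methyltransferase, kept its call with any library left out, while DNMT1 lost it without KO1, RE1 or RE2 and EHMT2 without any 1 A20-KO or A20-RE library or WT2. KDM4B lost its call without KO3, RE1 or RE2, KDM3A without KO1, RE1, RE2 or RE3 and JARID2 without KO1, RE1 or RE2. Among chromatin modifiers the number higher ran from 0 (without RE1 or RE2) to 8 (without WT1) and the number lower from 1 (without KO1, RE1 or RE2) to 11 (without WT1) with 1 library left out. The list median, -0.013, turned its sign under other scalings. Of 28 nucleotide synthesis members, RRM2 (-0.67), DUT (-0.84), TYMS (-0.57) and PRPS1 (-0.47) fell and AK4 (0.66) rose. The calls of DUT, TYMS and PRPS1 were lost without RE2, without KO1, KO3, RE1, RE2, RE3, WT2 or WT3 and without RE1 or RE2, in that order, and the number lower ran from 1 (without RE2) to 8 (without WT1) with 1 library left out. Of 88 zinc finger genes of chromosome 19, 5 were higher, ZNF587B (1.05 ± 0.13), ZNF558, ZNF808, ZNF266 and ZNF552, and 0 lower, at a median of 0.25. The number higher was close to the share of all members, 5.89%. It ran from 1 (without KO1 or RE2) to 11 (without WT1) with 1 library left out. ZNF558 lost its call without KO1, RE2 or RE3, and ZNF808, ZNF266 and ZNF552 theirs without KO1, KO3, RE1, RE2 or WT2, among others.

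MYO7B, STC1 and KRT6A were not members, since they lay below 1 FPKM. MYO7B, an unconventional myosin of the brush border, had 0.0935, 0.0416 and 0.0829 FPKM in KO1 to KO3 and 0.369, 0.527 and 0.470 FPKM in RE1 to RE3 (1.69 ± 0.33, adjusted p = 0.0183, limma), from 9 to 20 reads against 76 to 115 reads, and its call was lost without RE1, RE2 or RE3. STC1, the secreted glycoprotein stanniocalcin, had 3, 2 and 0 reads in KO1 to KO3 and 12, 18 and 12 in RE1 to RE3. Its difference, 1.05 ± 0.33, did not pass the test (adjusted p = 0.0822, limma), and WT had 21, 20 and 22 reads. KRT6A, a keratin of wounded epidermis, had 5, 1 and 1 reads in KO1 to KO3 and 23, 13 and 22 in RE1 to RE3 (1.52 ± 0.32, adjusted p = 0.0234, limma), and 33, 44 and 40 in WT. At these depths the counting error is a large part of each value.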

How the data were processed

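The authors sequenced polyadenylated RNA of 9 HCT116 libraries in 3 groups (WT, A20-KO and A20-RE, with 3 libraries in each), and groups were taken from the sample labels. The deposited table holds FPKM per gene and library, made by the authors. The submitters' processing notes name HISAT2 2.0.5 and featureCounts 1.5.0-p3. The genome build is not given in the sources used here, but 99.92% of the gene coordinates equal those of GENCODE 29 (GRCh38). Every sample column was used. Depth was 23406222 to 24963691 reads per library, which limits the precision of genes near 1 FPKM, and intervals of counting error were not drawn.

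Values were put on the scale of log2(FPKM + 0.1) and differences tested with limma 3.58.1 under R 4.3.3, letting the variance follow a trend with the level. All 9 libraries entered a single fit of 3 groups, over the 21636 genes with a mean of at least 0.1 FPKM, with Benjamini-Hochberg adjustment over all of them. Higher, lower and changed mean an adjusted p under 0.05. Tables were handled in Python 3.11.15. Recovered reads were FPKM multiplied by gene length and scaled to whole numbers.

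The members and gene lists were chosen with earlier results of these data known. Named genes were TNFAIP3, NDRG1, CALR and MYO7B, among changed members the 12 largest rises and 12 largest falls by log2 difference whose groups did not overlap, the 6 largest changes by FPKM in each direction outside the mitochondrial genome, in each list up to 3 changed members per direction (all where 5 or fewer changed, or the most abundant where none did), and STC1, LCN2 and KRT6A. Alternatives changed the pseudocount, the filter, the scaling, the libraries fitted, the variance trend, the threshold and the test (limma-voom on recovered reads), added a GC correction or the replicate number as a block, and left out each library. Same-numbered A20-KO and A20-RE libraries had correlations of their deviations of 0.028, 0.613 and 0.632, so not every pair passed 0.1 and the numbers were not taken to pair the libraries. Promoter sequences came from RefSeq (GRCh38.p14). Some genes that the rule names are not reported here.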

Additional observations from a re-analysis of the deposited data

How the results depend on the processing

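The 648 members called higher and 823 called lower became 429 and 494 with no filter on low values, 384 and 388 with no variance trend, 1126 and 1593 with GC correction, 166 and 153 at an adjusted p under 0.01, and 1581 and 2167 at an unadjusted p under 0.05. With A20-RE and A20-KO fitted alone the lower members were 1251, and with limma-voom on recovered reads they were 1418. Past 2-fold, the 110 higher and 70 lower members became 61 and 26 with a pseudocount of 1, and limma-voom gave 110 lower. With 1 library left out, the counts ran from 174 to 1020 higher, 170 to 1564 lower, 87 to 125 past 2-fold higher and 44 to 83 past 2-fold lower, and the TNFAIP3 difference from 4.82 to 5.32. The replicate numbers were not taken to pair the libraries. In the check KO1 correlated best with RE2 (0.345), while KO2 did so with RE2 (0.613) and KO3 with RE3 (0.632). Whether equal numbers share a batch was not tested. The replicate block gave 876 higher and 1184 lower, 113 and 75 past 2-fold, and with GC correction and replicate block together 1334 higher and 1976 lower. Median-of-ratios scaling gave 648 and 823, the same counts. It barely moved the deposited values, so it was no separate check. TNFAIP3 kept its direction and its call under all 21 alternatives. For 180 named genes, 3176 of 3774 values kept direction and side of the threshold, 595 lost the call, 1 gained it, and 2 reversed, both for COL1A1, which was not called: 0.0026 with GC correction and 0.0026 with GC correction and replicate block, from -0.18. The cause of these shifts was not tested. Depth limits the low genes: MYO7B, STC1 and KRT6A rest on 0 to 115 reads per library.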
